A study of Homo sapiens with 16 samples.

Results

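The second interval of the 17β-estradiol (E2) response in T-47D cells was followed in 4 of the 16 RNA-seq libraries of the series, 2 taken after 4 h of E2 and 2 taken after 2 h. T-47D is an established human breast ductal carcinoma line with high levels of estrogen receptor α (ER). All cells were kept in medium without phenol red and with charcoal-stripped serum to remove hormones, and 10 nM E2 was then given for 2, 4 or 8 h. Cells at 0 h had the vehicle alone. The 4 members were taken by the time and cell line in their labels, and the 0 h and 8 h T-47D libraries (2 each) were used to set the changes from 2 h to 4 h in the time course. No label says that the replicates of a time point came from separate cultures, so p-values measure the spread between these libraries, which may be technical.

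ER is a nuclear receptor that sits on DNA as a transcription factor once it has bound E2. Genes with ER-bound enhancers can respond directly and within the first hours, and some of their products are themselves transcription factors, signalling proteins or growth regulators, so that later changes can follow from the first ones. In luminal breast cancer cells, estrogen is known to push cells that rest in G1 towards DNA synthesis, which calls for new ribosomes, nucleotides and replication proteins.

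The 2 h libraries held 47817917 and 42602641 counts and the 4 h libraries 64148903 and 51653748, against 41223813 to 50472464 in the 0 h and 8 h libraries. Of the counts from 1 to 10, 71.2% to 74.6% were even numbers, so both reads of a pair may have been counted, and the number of fragments may then be nearer to these totals divided by 2. With all counts divided by 2, 305 genes were higher and 254 lower at 4 h than at 2 h. The luminal markers summed to 16400 and 16974 CPM (counts scaled to a common library size by TMM) after 2 h, against 16368 and 16418 CPM after 4 h. KRT8 alone measured 4748 and 4787 CPM after 2 h, so the sum says little about the weaker markers. Of the 12 markers edgeR called FOXA1 higher and XBP1 and SPDEF lower at 4 h, with 8 at an unadjusted p under 0.05. DESeq2 called 3. Over all tested genes edgeR called 1.94% higher and 1.46% lower. ESR1, which encodes ER, measured 186.2 and 191 CPM after 2 h, against 182 and 193 CPM after 4 h. The 14 markers of immune, endothelial, stromal, basal and placental cells summed to 90.8 and 96.3 CPM after 2 h, against 84.1 and 91.9 CPM after 4 h, of which COL1A1 made up 76.0 to 87.3 CPM, and of the 5 that could be tested edgeR called 0, with 0 at an unadjusted p under 0.05 and 0 by DESeq2. In bulk RNA, fewer cells with a transcript and less of it per cell cannot be told apart.

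Between 2 h and 4 h, 530 of 15594 tested genes changed (Benjamini-Hochberg adjusted p under 0.05 in the quasi-likelihood test of edgeR). Of the tested genes, 303 (1.94%) were higher at 4 h and 227 (1.46%) were lower. Most of these changes were small. Their median absolute log2 fold change was 0.31, only 27 of the 530 lay beyond 1, and the median over all tested genes was 0.00061. These counts rest on 2 libraries a side. They were 114 higher and 106 lower without 2 h replicate 1, 115 and 83 without 2 h replicate 2, 147 and 108 without 4 h replicate 1, and 129 and 103 without 4 h replicate 2, with 144 of the 530 genes called in all 8 fits that each left out 1 library. A gene named below is said to hold in all of these fits where it is among the 144.

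The 530 genes fell into 6 classes by what they had done in the first interval. Genes called at 2 h against 0 h are the first wave, with 764 Up (4.90% of tested genes) and 686 Down (4.40%). Genes called from 2 h to 4 h and not from 0 h to 2 h are the second wave, with 171 Up and 97 Down. Of the first wave Up, 102 genes rose further by 4 h, 67 fell back and 595 passed in neither direction. Of the first wave Down, 63 genes fell further, 30 came back up and 593 passed in neither direction. Both contrasts use the 2 h libraries, so a 2 h value that is high by error moves a gene towards a rise followed by a fall, and the counts of genes that turned back carry that limit. The 0 h libraries helped to choose both waves, since the second wave had no call at 2 h against 0 h. Counts of genes of either wave at 8 h against 0 h therefore share libraries with that choice.

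**Figure D1:**
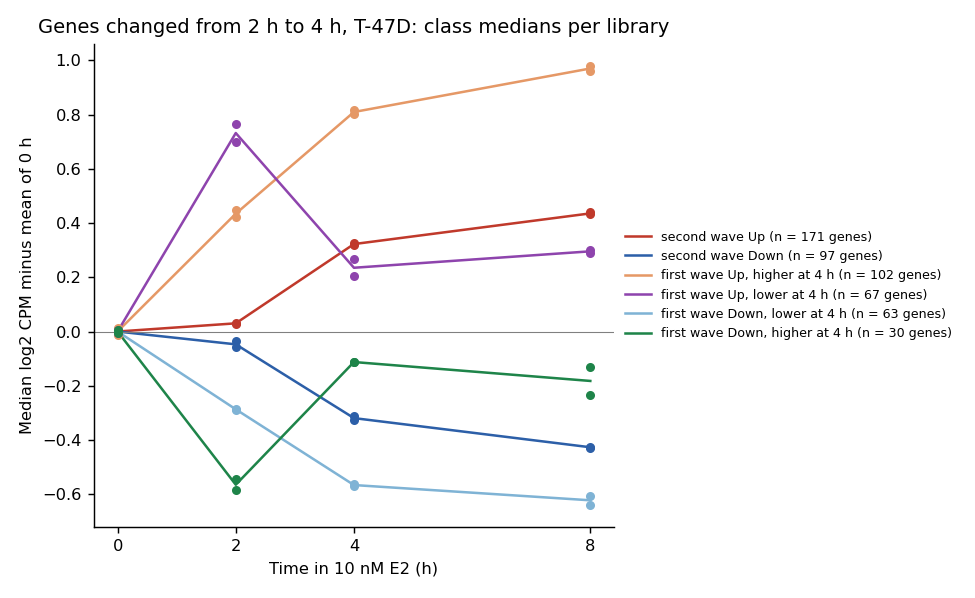
Median log2 CPM minus the mean of 0 h (y axis) against hours in E2 (x axis) for the 6 classes of genes called from 2 h to 4 h, with 1 point per T-47D library and lines through the means of 2 libraries. The second wave Up (red) lies near 0 at 2 h and near 0.3 at 4 h, while the first wave Up that fell back (purple) goes from above 0.7 at 2 h to between 0.2 and 0.3 at 4 h. The values at 0 h, 2 h and 4 h chose the classes, and those at 8 h did not.

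The second wave Up had a median log2 fold change of 0.29 from 2 h to 4 h, after 0.036 from 0 h to 2 h. Not passing at 2 h is not the same as not changing: 25 of the 171 had already moved up at 2 h with an unadjusted p under 0.05. The choice of these genes also needed no call at 2 h against 0 h, so it used the 0 h libraries. The contrast of 8 h against 0 h shares no library with 4 h against 2 h, and there 149 of the 171 genes were higher, 0 were lower and 22 were not called, with a median of 0.44. Across all tested genes that contrast called 15.4% higher and 14.3% lower. From 4 h to 8 h, 45 of the 171 rose further and 3 fell, where 2.09% of tested genes rose and 1.33% fell. Of the 97 genes of the second wave Down, 84 were lower at 8 h than at 0 h, 0 were higher and 13 were not called, and 21 of them fell further from 4 h to 8 h while 1 rose.

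**Figure D2:**
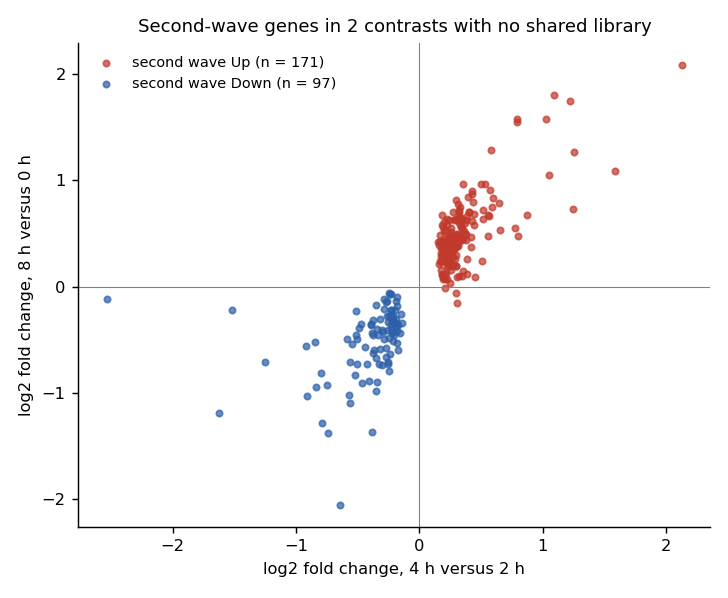
Each point is a gene of the second wave Up (red) or Down (blue), with its log2 fold change from 2 h to 4 h on the x axis and from 0 h to 8 h on the y axis. The contrasts share no library, but the 0 h libraries helped to choose the genes, which had no call at 2 h against 0 h. Of the 171 red points, 168 lie above 0 on the y axis, and the 97 blue points all lie below it. The blue point farthest to the left, DNM1P41 at -2.53, is a gene of under 1 CPM and lies close to 0 on the y axis.

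The largest rises of the second wave were in genes that lie over long stretches of the genome, given here on hg19 with the span of the GENCODE gene. KCNQ5, a subunit of a voltage-gated potassium channel (chromosome 6, 73331520 to 73908576), was measured at 2.59 and 3.13 CPM before E2, 2.16 and 1.90 after 2 h, 8.87 and 8.94 after 4 h and 12.1 and 12.1 after 8 h. Both 4 h libraries lay far above the 0 h and 2 h libraries, and the log2 fold change from 2 h to 4 h was 2.13 (standard error 0.14, edgeR adjusted p = 2.54e-08). PRKCE, protein kinase C epsilon (chromosome 2, 45878484 to 46415129), went from 12.7 and 13.9 CPM before E2 and 11.8 and 11.9 after 2 h to 37.1 and 33.8 after 4 h, and was at 27.5 and 29.2 after 8 h. Its rise of 1.58 on the log2 scale (standard error 0.081, edgeR adjusted p = 1.1e-09) was followed by a change of -0.32 from 4 h to 8 h (edgeR adjusted p = 0.022), which makes it 1 of the 3 second-wave Up genes that peaked at 4 h by the test. The other 2 were MAST4 and TANC2, named after their values were seen.

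THSD4, which codes for a matrix protein related to the ADAMTS proteases (chromosome 15, 71389291 to 72075722), kept climbing. It was at 65.2 and 59.7 CPM before E2, 63.2 and 65.2 after 2 h, 129.8 and 132 after 4 h and 189 and 183 after 8 h. The step from 2 h to 4 h was 1.03 (standard error 0.050, edgeR adjusted p = 9.07e-10) and that from 4 h to 8 h 0.51 (edgeR adjusted p = 1.28e-05). XYLT1, the xylosyltransferase that starts glycosaminoglycan chains on proteoglycans (chromosome 16, 17195626 to 17564817), had 29.5 and 29.6 CPM before E2, 30.9 and 31.4 after 2 h, 63.99 and 64.8 after 4 h and 60.5 and 61.5 after 8 h, a log2 fold change of 1.05 from 2 h to 4 h (edgeR adjusted p = 1.1e-09) with no call from 4 h to 8 h (-0.079, edgeR adjusted p = 0.491). The second wave thus held genes that were called again from 4 h to 8 h and genes that were not. GRIK4, a subunit of kainate-type glutamate receptors, was called again, with 9.78 and 10.6 CPM after 2 h, 17.6 and 17.7 after 4 h and 33.1 and 30.9 after 8 h. ZFPM2, a partner protein of GATA factors, rose by 1.25 from 2 h to 4 h and ANKFN1, which codes for a protein with ankyrin repeats, by 1.22. These 6 genes and KCNQ5 held in all fits that left out 1 library, whereas TTPA, the vitamin E transfer protein, at 1.44 and 1.31 CPM and then 2.43 and 2.64 CPM, lost its call when any 1 of the 4 compared libraries was left out.

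Gene span is given for each class as a description. The median span was 67.8 kb for the second wave Up and 76.1 kb for the second wave Down, against 30.6 kb for all tested genes, and 37.1% and 44.8% of them spanned at least 100 kb, against 19.2% of all tested genes. The 30 first-wave Down genes that came back up had the longest median of the 6 classes, 99.4 kb with 50% of such genes. First-wave Up genes that rose further had 50.2 kb and 31.4%, first-wave Down genes that fell further 40.04 kb and 25.8%, and first-wave Up genes that fell back 37.3 kb and 19.7%. Over all 530 called genes the values were 55.4 kb and 34.6%, so long spans were not particular to the second wave. Among the 20 second-wave Up genes with the largest log2 fold changes the median was 234 kb and 65% spanned at least 100 kb, against 65.0 kb and 33.3% of the others. Of the genes above, KCNQ5 spans 577 kb, PRKCE 537 kb, THSD4 686 kb and ZFPM2 1214 kb. Spans are of the whole annotated gene, not of the transcript used in these cells, and no test was made of these shares.

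**Figure D3:**
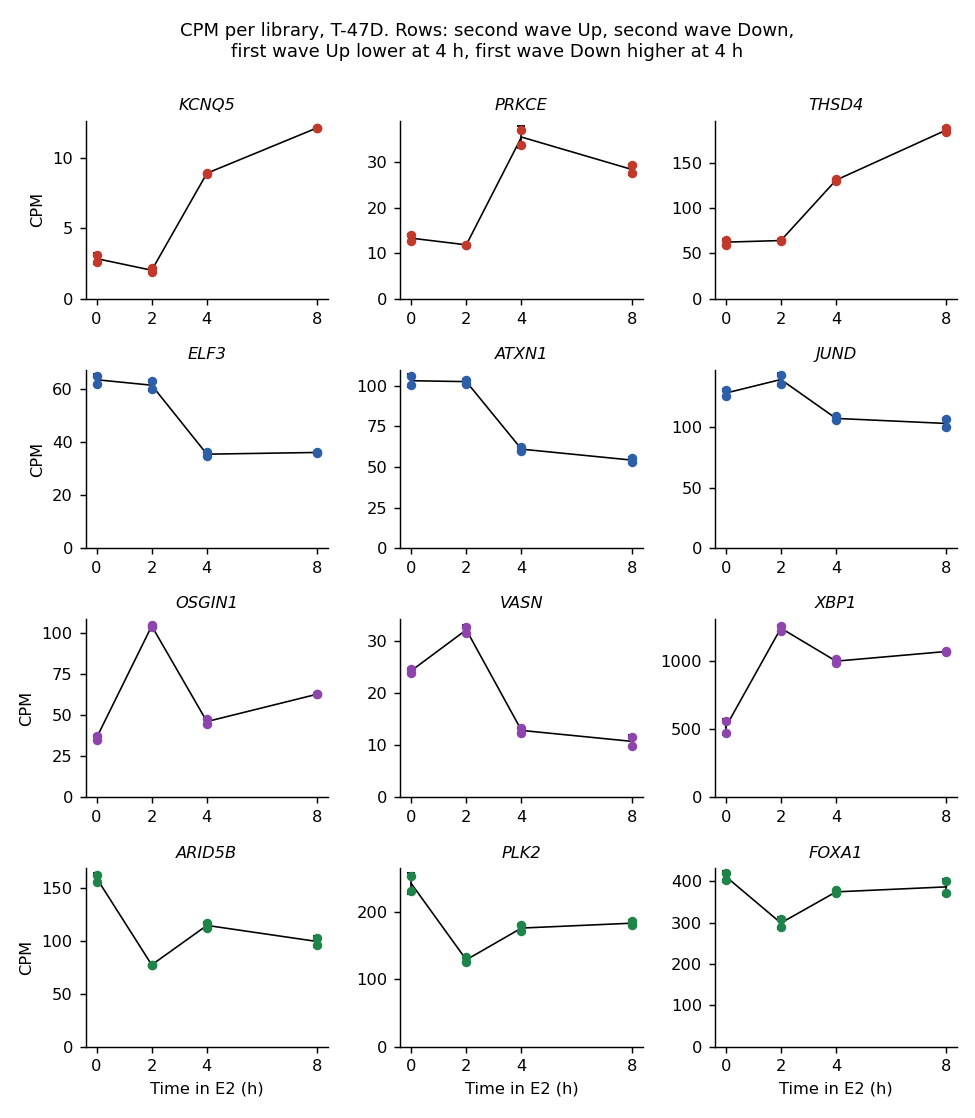
CPM (y axis, from 0) against hours in E2 (x axis) for 12 T-47D genes, with 1 coloured point per library, and black lines through the means with bars of 1 SD (n = 2). The rows show the second wave Up, the second wave Down, first-wave Up genes that were lower at 4 h and first-wave Down genes that were higher at 4 h. In each panel both 4 h points lie on one side of both 2 h points.

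Among the second-wave Up genes were AREG, DUSP6 and DUSP4 of EGF receptor and MAP kinase signalling. AREG, amphiregulin, a ligand of the EGF receptor and a known E2 target, was at 2.83 and 2.55 CPM before E2, 4.08 and 4.25 after 2 h, 6.02 and 8.46 after 4 h and 9.32 and 6.39 after 8 h. It did not pass at 2 h (log2 fold change 0.63, edgeR adjusted p = 0.0623) and passed from 2 h to 4 h (0.79, standard error 0.18, edgeR adjusted p = 0.018). AREG has a near-identical copy on hg19, so its counts are uncertain. DUSP6 and DUSP4, phosphatases that switch off MAP kinases and are themselves induced by them, rose from 2.19 and 1.97 CPM to 3.70 and 3.43 CPM and from 4.75 and 5.49 CPM to 7.75 and 7.57 CPM. DUSP4 went on to 14.3 and 15.2 CPM after 8 h (edgeR adjusted p = 0.000198 from 4 h). AREG, DUSP6 and DUSP4 each lost the call in 3 or 4 of the fits without 1 library.

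IGF1R, the receptor for insulin-like growth factor 1, and IRS1, the adaptor that docks on it, rose together. IGF1R was at 161 and 169 CPM before E2, 168 and 172 after 2 h, 203 and 214 after 4 h and 219 and 216 after 8 h (0.29 from 2 h to 4 h, standard error 0.045, edgeR adjusted p = 0.00079). IRS1 was at 53.9 and 47.02, 52.4 and 55.6, 70.4 and 70.2 and 69.7 and 67.00 CPM (0.38, standard error 0.061, edgeR adjusted p = 0.00104). Both steps held in all fits without 1 library. In the same interval 2 other receptor tyrosine kinases, ERBB2 and ERBB3, fell, from 613 and 615 to 494 and 497 CPM and from 721 and 749.5 to 651 and 668 CPM, continuing a fall already called at 2 h. The list of receptor tyrosine kinase genes had 3 members higher and 3 lower of 24 tested, with a median of -0.015. Over all tested genes 1.94% were higher and 1.46% lower.

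Genes for making ribosomes were the list with the most members rising from 2 h to 4 h. Of 50 ribosome biogenesis genes, 18 were higher at 4 h, 0 were lower and 32 were not called, and 46 had a positive log2 fold change, with a median of 0.18. Over all tested genes 1.94% were higher at 4 h. The list had already moved in the first interval, with 25 of its genes up at 2 h, so that 10 of the 18 were first-wave genes that went on rising and 8 were second-wave genes. DDX10, an RNA helicase of the small-subunit pathway, was at 39.7 and 42.8 CPM before E2, 53.9 and 53.5 after 2 h, 77.3 and 76.2 after 4 h and 66.3 and 69.3 after 8 h (0.52 from 2 h to 4 h, standard error 0.053, edgeR adjusted p = 1.1e-05). NOP56, a core protein of box C/D snoRNPs, went from 121 and 125 CPM after 2 h to 156 and 167 after 4 h, and DKC1, the pseudouridine synthase dyskerin, from 68.8 and 71.2 to 90.1 and 89.5 CPM. Among the second-wave members, RRP12, a factor in the export of preribosomes, went from 81.1 and 80.9 to 104 and 105 CPM and MYBBP1A, a nucleolar protein that binds MYB, from 31.6 and 30.4 to 40.4 and 40.3 CPM. From 4 h to 8 h 9 of the 50 rose and 0 fell, where 2.09% of tested genes rose and 1.33% fell. At 8 h 47 of the 50 were above 0 h, against 15.4% of tested genes.

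DNA replication genes were first called in this interval. At 2 h against 0 h edgeR called 0 of the 44 tested genes (4 at an unadjusted p under 0.05, 0 by DESeq2), and their median was -0.010. Over all tested genes edgeR called 4.90% higher and 4.40% lower there. From 2 h to 4 h, 8 of the 44 were higher and 0 lower, 42 had a positive log2 fold change and the median was 0.15. From 4 h to 8 h 25 of the 44 rose and 0 fell, with a median of 0.26. The shares over all tested genes were 1.94% higher and 1.46% lower at 4 h than at 2 h. From 4 h to 8 h they were 2.09% and 1.33%. MCM6, a subunit of the MCM helicase that unwinds DNA at origins, was at 89.6 and 84.8 CPM before E2, 89.8 and 88.1 after 2 h, 105 and 103 after 4 h and 138 and 132 after 8 h. Its steps were 0.23 from 2 h to 4 h (standard error 0.048, edgeR adjusted p = 0.0108) and 0.38 from 4 h to 8 h (edgeR adjusted p = 0.000228). The others were MCM2 and MCM4, further MCM subunits, MCM10, CDC6 and CDT1, which load or activate the helicase, UHRF1, which copies DNA methylation at the fork, and WDHD1, which ties the polymerase to the helicase. Their log2 fold changes lay between 0.16 for MCM4 and 0.32 for UHRF1. None of the calls held in all fits that left out 1 library. CDC6 and CDT1 lost the call in 2 of these fits, and MCM10 and UHRF1 in 1. The calls of MCM2, MCM4, MCM6 and WDHD1 were lost when any 1 of the 4 compared libraries was left out. E2F1, a transcription factor known to drive many of these genes, rose too, from 58.1 and 52.7 CPM before E2 and 55.2 and 55.3 after 2 h to 63.7 and 66.6 after 4 h and 89.7 and 81.9 after 8 h. RBL1, or p107, an E2F-binding pocket protein, rose by 0.31 from 2 h to 4 h, and the calls of E2F1 and RBL1 were lost in the same 4 fits.

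The mitotic list had few calls at 4 h. Of 30 genes of G2 and mitosis, 1 (KIF23, a kinesin of the midbody) was higher at 4 h and the median was 0.070, against 13 higher at 8 h than at 0 h. Among 25 genes of the G1 to S machinery, E2F1 and RBL1 were higher, while CCND1 (cyclin D1) and CDKN2B (the CDK inhibitor p15) were lower. Of 19 homologous recombination genes, edgeR called 0 at 4 h against 2 h (6 at an unadjusted p under 0.05, 1 by DESeq2), with a median of 0.13, and 16 of them were higher at 8 h than at 0 h. Of 30 growth arrest genes, 0 were higher and 2 were lower, MXD4, which competes with MYC for its partner MAX, from 161 and 167 to 139.6 and 142 CPM, and TOB2, an antiproliferative protein, from 72.2 and 80.6 to 67.01 and 64.1 CPM. The median of that list was -0.10, and 18 of its genes were lower at 8 h than at 0 h. Over all tested genes 15.4% were higher and 14.3% lower at 8 h than at 0 h. At 4 h against 2 h, 1.94% were higher and 1.46% lower.

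Nucleotide and protein synthesis genes rose in smaller numbers. Of 24 nucleotide synthesis genes, 6 were higher and 0 lower at 4 h, and 10 of the 24 rose from 4 h to 8 h. CTPS1, which makes CTP, was the largest of them, with 20.05 and 20.3 CPM before E2, 21.7 and 21.1 after 2 h, 30.4 and 31.8 after 4 h and 39.8 and 38.98 after 8 h (0.54 from 2 h to 4 h, standard error 0.066, edgeR adjusted p = 0.000101). PPAT, PAICS and GART, enzymes of purine synthesis, went from 35.2 and 35.9 to 45.8 and 44.4 CPM, from 158 and 160.4 to 184 and 177 CPM and from 139 and 141 to 161 and 159.8 CPM, and CAD, which starts pyrimidine synthesis, and MTHFD1, a folate enzyme, were the other 2. In 3 further lists few members were called: of 20 tRNA synthetases FARSA, FARSB and YARS were higher, of 32 chaperones HSPA1A, HSPA8, HSPD1 and CCT5, and of 27 genes of amino acid supply MTHFD1L, SLC7A1, SLC3A2 and SLC38A2, with 0 lower in each. The shares over all tested genes were 1.94% higher and 1.46% lower at 4 h than at 2 h. From 4 h to 8 h they were 2.09% and 1.33%. SLC7A1, the transporter of cationic amino acids, was at 40.2 and 41.7 CPM before E2, 44.2 and 42.2 after 2 h, 59.6 and 57.4 after 4 h and 72.7 and 69.1 after 8 h. HSPA1A lies in the major histocompatibility region and has a near-identical copy next to it, so its counts are uncertain. CTPS1, SLC7A1, SLC3A2 and SLC38A2 held in all fits that left out 1 library. The other genes named in this paragraph did not. PAICS, GART, CAD, MTHFD1, FARSA, HSPA1A, HSPD1 and CCT5 lost the call when any 1 of the 4 compared libraries was left out.

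**Figure D4:**
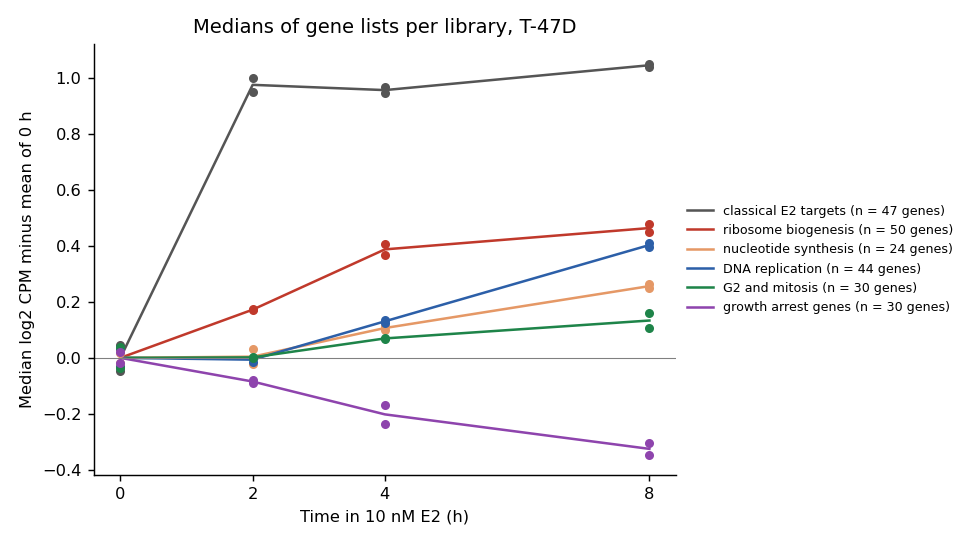
Median log2 CPM minus the mean of 0 h (y axis) against hours in E2 (x axis) for 6 gene lists, with 1 point per T-47D library and lines through the means of 2 libraries. The classical E2 targets are near 1 from 2 h on, the ribosome biogenesis genes climb from 0 h to 4 h, and the DNA replication genes lie at 0 at 2 h and climb from 2 h to 8 h.

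The promoter sequences of 4 of these genes are shown because they carry short motifs that are known from growth genes. They are the 250 bases before the start of the RefSeq gene on GRCh38.p14, read along the gene's strand, with each match in capitals. In MCM6 (chr2:135876444-135876693, minus strand) and E2F1 (chr20:33686386-33686635, minus strand) the capitals mark TTTGGCGC, a form of the E2F site, and in PPAT (chr4:56435616-56435865, minus strand) and UTP20 (chr12:101279855-101280104, plus strand) they mark CACGTG, the E-box that MYC and MAX can bind.
MCM6: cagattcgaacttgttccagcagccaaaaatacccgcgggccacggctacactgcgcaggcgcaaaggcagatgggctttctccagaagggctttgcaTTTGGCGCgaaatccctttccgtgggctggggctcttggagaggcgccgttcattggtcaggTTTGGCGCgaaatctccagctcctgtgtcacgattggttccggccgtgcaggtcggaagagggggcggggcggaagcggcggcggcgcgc
E2F1: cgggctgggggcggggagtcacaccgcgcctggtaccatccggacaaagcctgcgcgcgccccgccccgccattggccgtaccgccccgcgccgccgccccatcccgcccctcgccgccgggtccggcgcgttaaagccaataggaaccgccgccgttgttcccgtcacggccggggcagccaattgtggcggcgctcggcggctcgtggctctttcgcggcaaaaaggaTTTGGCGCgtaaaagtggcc
PPAT: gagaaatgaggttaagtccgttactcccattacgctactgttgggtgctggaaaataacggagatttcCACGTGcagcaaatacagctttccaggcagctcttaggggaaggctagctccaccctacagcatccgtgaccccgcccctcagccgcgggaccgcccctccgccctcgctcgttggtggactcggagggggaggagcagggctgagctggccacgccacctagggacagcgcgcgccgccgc
UTP20: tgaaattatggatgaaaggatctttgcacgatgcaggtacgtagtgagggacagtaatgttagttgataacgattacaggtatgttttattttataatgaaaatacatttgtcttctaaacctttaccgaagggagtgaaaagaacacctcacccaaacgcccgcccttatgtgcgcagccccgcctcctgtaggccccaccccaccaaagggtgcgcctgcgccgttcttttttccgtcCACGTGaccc
The MCM6 matches begin 152 and 90 bases before the start, that of E2F1 20 bases, that of PPAT 182 bases and that of UTP20, a small-subunit processome protein that rose from 89.3 and 89.9 to 110.5 and 109 CPM, 10 bases before it. PPAT and PAICS start close to each other and face apart, and the printed PPAT window overlaps 1 of the windows of PAICS.

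Both motifs were counted on either strand in windows of 300 bases, which add the first 50 bases of the gene. TTTGGCGC stood in 6 of the 38 DNA replication genes with a window (15.8%), of which MCM6 and CDC6 were called at 4 h, in 4 of 20 G1 to S genes, including E2F1 and RBL1, and in 0 of 41 ribosome biogenesis genes. Over all 27305 genes of the promoter table the share was 0.795%. CACGTG stood in 18 of the 41 ribosome biogenesis genes (43.9%), 7 of which were called at 4 h, and in 6 of 21 nucleotide synthesis genes, of which PPAT, PAICS and MTHFD1 were called, against 8.77% of all genes of the table. In the second wave Up as a whole, of which 138 of 171 genes had a window, 31 (22.5%) held CACGTG and 9 (6.52%) held TTTGGCGC, and in the second wave Down 6 (7.59%) and 0 of 79. The whole table includes genes that these cells do not use. Over the 11988 of 15594 tested genes with a window the shares were higher, 12.3% for CACGTG and 1.33% for TTTGGCGC, and of the first-wave Up genes that rose further, 80 of 102 had a window and 26.2% of those held CACGTG. For both of these sets under 80% of the genes had a window, so a comparison with them is void and the shares are given as values. A match is a run of letters, and binding was not measured.

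The second wave Down had a median log2 fold change of -0.043 at 2 h and of -0.29 from 2 h to 4 h. ELF3, an ETS factor of epithelial cells (chromosome 1, 201977073 to 201986311), was at 62.1 and 65.2 CPM before E2, 60.1 and 63.02 after 2 h, 34.7 and 36.4 after 4 h and 36.1 and 36.2 after 8 h, and its log2 fold change from 2 h to 4 h was -0.79 (standard error 0.055, edgeR adjusted p = 6.62e-08). ATXN1, ataxin-1, which binds transcriptional repressors (chromosome 6, 16299343 to 16761722), was at 106 and 100.2, 101 and 104, 62.2 and 59.7 and 52.7 and 55.7 CPM at the same times (-0.75, standard error 0.051, edgeR adjusted p = 5.2e-08). In both genes the 0 h and 2 h libraries overlapped in level, the 4 h libraries lay below them, and most of the fall was over by 4 h. Among other regulators, JUND, an AP-1 subunit, went from 135 and 143 CPM after 2 h to 109 and 105 after 4 h (-0.38, edgeR adjusted p = 0.000166). KLF12, a zinc-finger repressor, went from 4.54 and 4.55 to 2.52 and 2.56 CPM, and SKIL, or SnoN, which blocks SMAD signalling, from 101 and 104 to 86.97 and 77.8 CPM.

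WNT3, a secreted WNT ligand (chromosome 17, 44839872 to 44910520), had the largest fall by the naming rule at -1.25 (standard error 0.26, edgeR adjusted p = 0.00994), and it was low throughout, with 2.07 and 1.84 CPM before E2, 1.54 and 1.24 after 2 h, 0.576 and 0.597 after 4 h and 1.20 and 1.20 after 8 h. It was the 1 gene of the second wave Down that turned back, with a rise of 1.03 from 4 h to 8 h (edgeR adjusted p = 0.0377). Other large falls were in genes of low level: DCLK2, a doublecortin-like kinase (-0.92), RHBDL3, a rhomboid-like protein (-0.91), ATP8A2, a lipid flippase (-0.84), KRTAP5-AS1 (-0.79), EXTL1, a glycosyltransferase (-0.74), and C2orf54 (-0.64). Each of these, with WNT3 and KLF12, lost its call in 3 or 4 of the fits without 1 library, whereas ELF3, ATXN1, JUND and ROBO2, a receptor for SLIT ligands that fell from 79.9 and 82.9 to 66.1 and 61.8 CPM, held in all of them.

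Most first-wave genes were called in neither direction from 2 h to 4 h. Over the 764 first-wave Up genes the median log2 fold change from 2 h to 4 h was 0.035 (interquartile range -0.094 to 0.15), and over the 686 Down genes it was -0.020 (-0.13 to 0.099). The signs of these medians are not settled: without 2 h replicate 1 they were -0.0077 and 0.011, and without 2 h replicate 2 the Down median was 0.020. From 4 h to 8 h, which shares no library with the choice of the first wave, 57 of the 764 Up genes rose and 19 fell. In that interval 2.09% of all tested genes rose and 1.33% fell. Where the first wave was chosen with 1 of the 2 h libraries and the step to 4 h was measured from the other, 30 of 506 and 34 of 470 Up genes fell back and 49 and 47 rose further, and 15 of 310 and 14 of 377 Down genes came back up. Each of these fits had 1 library at 2 h, which was assumed to vary like the other time points, so an error in that library is not covered.

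Decay was called in a minority of first-wave Up genes. The 67 that fell back had a median log2 fold change of 0.75 at 2 h, against 0.40 over all 764 (a difference that the shared 2 h libraries favour), and of -0.36 from 2 h to 4 h, and at 4 h the median share of the 2 h change that was left, on the linear scale, was 29.98%. At 8 h, 39 of the 67 were still above 0 h, 10 were below and 18 were not called. OSGIN1, an oxidative stress-induced growth inhibitor (chromosome 16, 83964916 to 83999937), was called in each of the 3 intervals. It was at 37.6 and 35.1 CPM before E2, 104 and 105 after 2 h, 44.8 and 47.8 after 4 h and 62.99 and 62.97 after 8 h. After a rise of 1.52 on the log2 scale it changed by -1.18 (standard error 0.053, edgeR adjusted p = 3.34e-10), which left 14.6% of the 2 h change, and from 4 h to 8 h it rose again by 0.45 (edgeR adjusted p = 0.000168). TSKU, the secreted protein tsukushi, was at 22.9 and 18.7 CPM before E2, 43.5 and 45.7 after 2 h, 22.3 and 23.9 after 4 h and 23.4 and 20.8 after 8 h, so that at 4 h and 8 h it lay close to its range before E2.

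In other genes the fall went past the starting level. VASN, vasorin, a membrane protein that binds TGF-beta (chromosome 16, 4421849 to 4433539), was at 24.7 and 23.9 CPM before E2, 31.5 and 32.8 after 2 h, 12.4 and 13.4 after 4 h and 11.6 and 9.97 after 8 h. Its change from 2 h to 4 h was -1.32 (standard error 0.084, edgeR adjusted p = 2.54e-08), and at 8 h it was -1.17 against 0 h (edgeR adjusted p = 1.46e-08). PRKCD, protein kinase C delta, went the other way from its relative PRKCE, with 29.4 and 28.6 CPM before E2, 46.1 and 49.7 after 2 h, 24.9 and 24.5 after 4 h and 21.4 and 19.3 after 8 h. ADAMTS15, a matrix protease, was at 67.6 and 58.3, 76.6 and 78.4, 40.2 and 41.7 and 36.7 and 34.3 CPM. TMPRSS2, a membrane serine protease, was at 5.56 and 5.65 CPM before E2, 11.4 and 10.6 after 2 h, 4.79 and 4.24 after 4 h and 3.86 and 3.32 after 8 h. VASN, PRKCD, ADAMTS15 and TMPRSS2 are 4 of the 10 genes that ended below 0 h at 8 h, and they held in all fits without 1 library, as did OSGIN1 and TSKU. Also by size the rule named FOXC1, a forkhead factor (-1.01), and 3 genes of low level that share sequence with neighbours or near-identical copies, DDT (-1.56), CT45A7 (-1.51) and MYZAP (-0.93), whose counts are uncertain.

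Well-known direct E2 targets split in this interval. Of 47 classical targets, 35 were up at 2 h, and from 2 h to 4 h 15 were higher, 10 were lower and 22 were not called, with a median of 0.15. Among all tested genes 4.90% were up at 2 h, and 1.94% were higher and 1.46% lower at 4 h than at 2 h. Of the 10 that fell back, all but CCND1 and FOXC1 kept over 60% of their rise at 4 h. XBP1, a transcription factor of the secretory pathway, was at 557 and 471 CPM before E2, 1219 and 1255 after 2 h, 1009 and 982 after 4 h and 1062 and 1071 after 8 h (-0.31 from 2 h to 4 h, standard error 0.052, edgeR adjusted p = 0.00164), with 66.7% of the 2 h change left at 4 h. MYB, a transcription factor, kept 70.7%, RARA, the retinoic acid receptor alpha, 63.99%, NRIP1, a corepressor of nuclear receptors, 62.2%, SIAH2, a ubiquitin ligase, 78.5%, and KCNK5, a potassium channel that started from 0.652 and 0.339 CPM, 64.8%. CCND1 was at 165 and 179.9 CPM before E2, 232 and 249 after 2 h, 199 and 196 after 4 h and 229.8 and 233 after 8 h, a dip to 36.4% of its 2 h change that was followed by a rise of 0.23 (edgeR adjusted p = 0.0118). SIAH2 and RASGRP1 lost their calls in 4 fits without 1 library and XBP1 in 0.

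Other classical targets had not finished rising at 2 h. CXCL12, a chemokine, was at 17.98 and 14.5 CPM before E2, 135 and 147 after 2 h, 222 and 226 after 4 h and 309.7 and 316 after 8 h (0.67 from 2 h to 4 h, standard error 0.061, edgeR adjusted p = 3.5e-06). GREB1, an ER cofactor, was at 388 and 413 CPM after 2 h and 457 and 487 after 4 h, so most of its rise from 112 and 122 CPM came in the first interval. PTGES, prostaglandin E synthase, went from 53.5 and 53.3 to 76.2 and 70.1 CPM and OLFM1, olfactomedin 1, from 81.4 and 81.8 to 123 and 118 CPM. All 102 first-wave Up genes that rose further were above 0 h at 8 h, an outcome that the shared 0 h libraries favour. The largest further rises were in KCNH1, a voltage-gated potassium channel (chromosome 1, 210850165 to 211307507), and CADM1, a cell adhesion molecule (0.94). KCNH1 was at 14.9 and 16.6 CPM before E2, 28.6 and 30.7 after 2 h, 73.97 and 78.04 after 4 h and 73.8 and 74.4 after 8 h (1.36 from 2 h to 4 h, standard error 0.060, edgeR adjusted p = 3.34e-10). SUSD3, PLCL1, an inactive phospholipase C-like protein, and IFITM10 rose further by 0.88, 0.87 and 0.86.

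Of the first-wave Down genes, 30 came back up, with a median of -0.57 at 2 h and 0.36 from 2 h to 4 h, and 26.4% of the 2 h change was left at 4 h. At 8 h, 13 of the 30 were still below 0 h and 17 were not called. ARID5B, a DNA-binding chromatin protein (chromosome 10, 63661443 to 63856703), was at 156 and 162 CPM before E2, 77.3 and 77.00 after 2 h, 116 and 112 after 4 h and 95.8 and 103 after 8 h. It came back by 0.57 (standard error 0.049, edgeR adjusted p = 1.46e-06) and then changed by -0.21 from 4 h to 8 h (edgeR adjusted p = 0.0233). LRIG3, a membrane protein with leucine-rich repeats, was back near its starting level by 8 h, with 69.7 and 71.1 CPM before E2, 46.02 and 45.9 after 2 h, 63.1 and 66.4 after 4 h and 70.97 and 69.6 after 8 h. PLK2, a polo-like kinase, was part of the way back, with 253 and 232, 126 and 133, 179.9 and 172 and 180.3 and 186 CPM, and SH3RF1, a scaffold with ubiquitin ligase activity, went from 18.4 and 18.4 to 26.1 and 25.9 CPM. By size RUNX1T1, a corepressor (1.46), NAV1, a microtubule-binding protein (1.20), and EGR1, an immediate-early factor (1.11), came first, each at 1.03 CPM or less in both 2 h libraries. The rule also named FIGN, a microtubule-severing ATPase (0.59), ZNF608, a zinc-finger protein (0.41), and NOD1, a sensor of bacterial peptides (0.41), and EGR1 and NOD1 lost their calls in 4 fits without 1 library.

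Transcription factors of luminal cells moved in opposite directions. Of 22 such factors, 3 were higher and 6 lower at 4 h than at 2 h, and all 3 that were higher had fallen in the first interval. Over all tested genes 1.94% were higher and 1.46% lower at 4 h than at 2 h. FOXA1, the pioneer factor that opens chromatin for ER, was at 420.2 and 403 CPM before E2, 289 and 309 after 2 h, 378 and 370.5 after 4 h and 372 and 400.4 after 8 h (0.32, standard error 0.045, edgeR adjusted p = 0.000338). ZNF217 went from 80.1 and 87.1 to 106 and 108 CPM and TFAP2A, or AP-2 alpha, from 129 and 140.2 to 151 and 156 CPM. TFAP2C, or AP-2 gamma, took the opposite course, with 84.8 and 83.7 CPM before E2, 126 and 127 after 2 h, 102 and 99.9 after 4 h and 119.7 and 122 after 8 h, and GRHL2, an epithelial factor, went from 355 and 363 to 313 and 316 CPM. XBP1 and MYB were lower too, as was SPDEF, an ETS factor, which went from 269 and 277 to 228 and 240.4 CPM and so continued a fall called at 2 h. ELF3 was the sixth.

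The first-wave Down genes that fell further were led by FAM83A (-1.002), KCNC1, a potassium channel (-0.83), FGD5, an exchange factor for CDC42 (-0.66), CCDC154 (-0.57) and TNS3, tensin 3 (-0.55). TNS3 was at 249 and 279 CPM before E2, 230.4 and 225 after 2 h, 152 and 160.2 after 4 h and 159 and 155 after 8 h, so its larger step came in the second interval. All 63 genes of this class were below 0 h at 8 h, an outcome that the shared 0 h libraries favour. ERBB2, the HER2 receptor, fell at each step, with 699.9 and 713 CPM before E2, 613 and 615 after 2 h, 494 and 497 after 4 h and 369 and 355 after 8 h (-0.31 from 2 h to 4 h, standard error 0.036, edgeR adjusted p = 4.6e-05).

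Among immediate-early genes, more were lower than higher. Of 25 tested, FOSL2, JUN, JUND and ATF3 were lower at 4 h, EGR1 was higher and 20 were not called, with a median of -0.13. For this list and those below, the shares over all tested genes were 1.94% higher and 1.46% lower. FOSL2, an AP-1 subunit, was at 23.96 and 24.9 CPM before E2, 44.5 and 45.96 after 2 h, 30.5 and 31.6 after 4 h and 34.8 and 31.8 after 8 h (-0.54, standard error 0.064, edgeR adjusted p = 5.82e-05). JUN had fallen at 2 h already and was at 167 and 179, 138 and 144, 119 and 117 and 145 and 147 CPM, and so was back up at 8 h (edgeR adjusted p = 0.00131 from 4 h). Of 16 MAP kinase feedback genes, DUSP4 and DUSP6 were higher and DUSP1 and DUSP8 lower, with a median of -0.071. Of 24 genes of retinoid, BMP and TGF-beta signalling, BMP4 was higher and 4 were lower, among them RARA and DHRS3, a retinal reductase, and of 22 nuclear receptors and coregulators PPARGC1B was higher and RXRA, NRIP1 and TLE3 were lower. AMD1, which supplies polyamine synthesis, was the 1 gene called of 9 in that list. EdgeR called 0 of 15 BCL2 family genes, 0 of 24 interferon-stimulated genes and 0 of 11 replication-dependent histone genes, with medians of -0.10, -0.12 and -0.040. At an unadjusted p under 0.05 these were 5, 3 and 0 genes, and DESeq2 called 0 in each. The libraries were made from poly(A) RNA, so the histone values do not describe histone RNA without a poly(A) tail. The lists overlap in members and were chosen with results of these data known, so the counts describe them and do not set them apart from other genes.

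**Figure D5:**
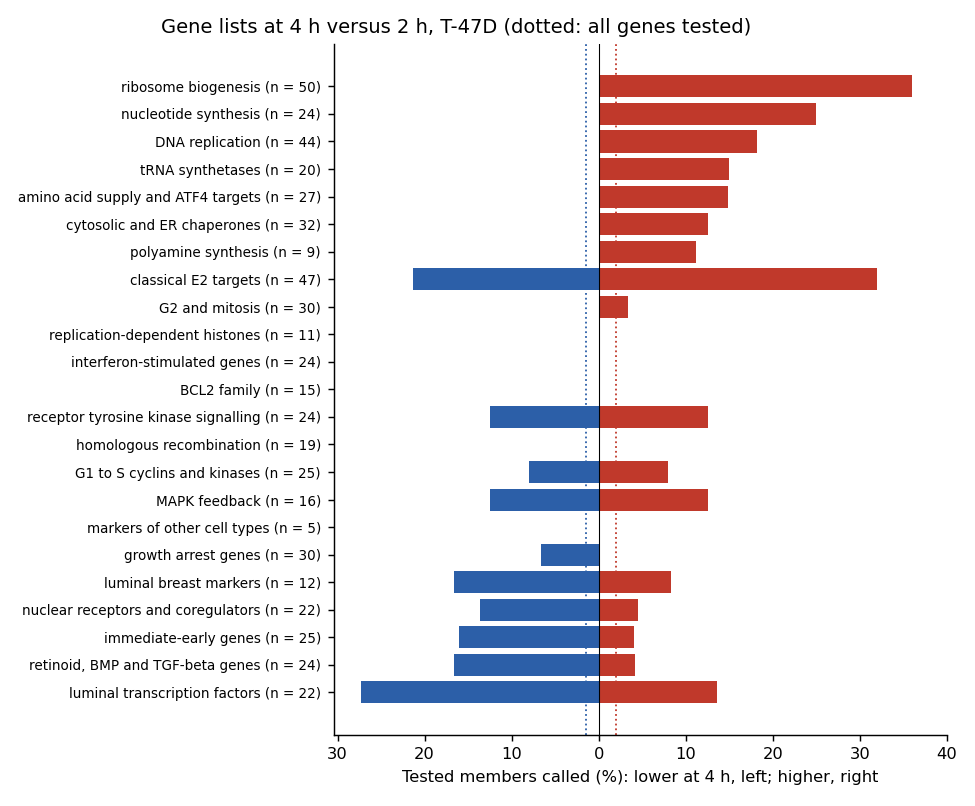
Percent of the tested members of each gene list reported here that were called at 4 h against 2 h in T-47D cells, with genes lower at 4 h to the left of 0 and genes higher at 4 h to the right, and the number tested in brackets. Dotted lines give the percent over all tested genes, 1.94% higher and 1.46% lower. Ribosome biogenesis, nucleotide synthesis and DNA replication genes are on the higher side alone, and classical E2 targets and luminal transcription factors have bars on both sides.

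The step from 2 h to 4 h was compared with that in Ishikawa cells, the endometrial adenocarcinoma line of the series, which had the same treatment. The interaction of cell line and time passed for 161 of 17090 genes (0.942%), of which 75 were also called in T-47D cells, and 58 of these 75 had the opposite sign in Ishikawa cells. Passing both tests favours a smaller or opposite step in Ishikawa cells, and the signs there were counted without a test. The 58 include genes with an Ishikawa step near 0, such as PRKCE (-0.039) and OSGIN1 (0.014). PRKCE was at 6.75 and 6.84 CPM after 2 h and 7.24 and 5.98 after 4 h in Ishikawa cells, and its step differed by 1.62 on the log2 scale (T-47D minus Ishikawa, standard error 0.17, edgeR adjusted p = 1.79e-05). OSGIN1 was at 72.4 and 70.3 and then 76.4 and 67.4 CPM, a difference of -1.19 (edgeR adjusted p = 3.86e-06), and VASN at 227 and 220.3 and 213 and 198 CPM, a difference of -1.20 (edgeR adjusted p = 1.18e-06). ELF3 did not pass (difference -0.037, edgeR adjusted p = 0.984) and had a log2 fold change of -0.76 in Ishikawa cells. The Ishikawa libraries labelled 4 h and 8 h did not separate well, with 2 genes called between them by edgeR, 2 by DESeq2 and 554 at an unadjusted p under 0.05. With the 4 of them taken as 1 group, a setting added after seeing the data, 192 genes passed, 146 of them shared, and PRKCE, OSGIN1 and VASN were among those that passed there and without each of the 8 libraries compared.

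Overlaps limit some of the values above. The counting's use of strand is not given in the sources used here, and exons of KCNQ5, THSD4, ELF3, TMPRSS2, FOXA1, CCND1, ERBB2 and MYBBP1A overlap exons on the opposite strand, while exons of OSGIN1 overlap those of MLYCD on the same strand. NOP56, DKC1 and NCL host small nucleolar RNAs. Of the 530 called genes, 6 lie in the major histocompatibility or pseudoautosomal regions, among them ABCF1, with 7.06 and 5.49 CPM after 2 h and 9.96 and 11.9 after 4 h, and HSPA1A. Reads of such regions can be split over alternative copies.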

How the data were processed

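RNA of T-47D cells was sequenced before E2 and after 2, 4 or 8 h in it, with 2 libraries per time point. Per the labels and the study's methods, the authors made directional poly(A) libraries, aligned reads to hg19 with HISAT2 and counted reads per gene with featureCounts, and they deposited unnormalised counts for 26364 genes. Tool versions and the strand setting of the counting are not given in the sources used here. Groups were taken from the labels, and no column was left unmatched.

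Counts of all 8 T-47D libraries were fitted together in R 4.3.3 with edgeR 4.0.16 (filterByExpr, TMM, quasi-likelihood F test, time as a factor), which left 15594 genes, and p-values were adjusted by the Benjamini-Hochberg method over all of them with a threshold of 0.05. Standard errors are the log2 fold change divided by the root of F. The biological coefficient of variation was 5.02%. The interaction with Ishikawa cells was fitted on the 16 libraries of the series. Gene positions came from GENCODE v44 lifted to hg19 and matched 90.5% of the symbols, and promoter windows came from RefSeq on GRCh38.p14.

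Genes were named by class: the 10 with the largest changes in the second wave and in the first-wave genes that turned back, the 5 largest in first-wave genes that went on, called members of the lists, and the 5 largest interaction differences, with a mean count of at least 50, groups that did not overlap and replicates within 1.5 times of each other. The members and the lists were chosen with earlier results of these data known, and a few other genes were named after their values were seen. No pair of replicate libraries was identical. The scripts were tested on simulated data. Alternatives were DESeq2 1.42.0, RLE scaling, other filters and thresholds, counts divided by 2 (most small counts were even), a replicate block, only the compared time points, and leaving out each library. Thinning every library to the smallest, and the interaction settings on the Ishikawa libraries, were added after seeing the data. The list of cholesterol and fatty acid synthesis genes is not reported here.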

Additional observations from a re-analysis of the deposited data

Results flagged for a closer look

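The step from 2 h to 4 h differed between T-47D and Ishikawa cells for 161 genes by the interaction term in edgeR, and differences are given here as the T-47D minus the Ishikawa log2 fold change for the genes named in the text. The step was more positive in T-47D cells for ABCF1 (3.24), PHACTR1 (2.97), SUSD3 (1.77), PRKCE (1.62), ZFPM2 (1.48), NAV1 (1.37), THSD4 (0.99), GRIK4 (0.90), FIGN (0.60), ZNF608 (0.59), FOXA1 (0.49), CTPS1 (0.37), AMD1 (0.36) and SLC7A1 (0.33). It was more negative for SPDEF (-3.29), ROBO2 (-1.75), DDT (-1.71), DHRS3 (-1.64), WNT3 (-1.21), VASN (-1.20), OSGIN1 (-1.19), TMPRSS2 (-0.97), TSKU (-0.97), ADAMTS15 (-0.90), FOSL2 (-0.87), ATF3 (-0.77), GREB1 (-0.76), PRKCD (-0.59), JUN (-0.56), FHL2 (-0.45) and SIAH2 (-0.34). The 3 differences of the largest size rest on low Ishikawa levels. In those cells SPDEF measured 0 and 0.165 CPM after 2 h and 0.670 and 0.920 after 4 h, PHACTR1 0.449 and 0.366 and then 0.0496 and 0.0727 CPM, and ABCF1 3.61 and 4.90 and then 0.620 and 0.945 CPM.

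Over 9 other fits (the Ishikawa 4 h and 8 h libraries as 1 group, and each 2 h or 4 h library of either line left out), 18 of these genes passed each time, among them PRKCE, THSD4, GRIK4, FOXA1, OSGIN1, VASN, TSKU, PRKCD, ADAMTS15, FOSL2, JUN and GREB1. ATF3 and SUSD3 passed in 7, WNT3 in 6, TMPRSS2 in 5, CTPS1 in 4, NAV1 and ZFPM2 in 3, SLC7A1 and FIGN in 2, SIAH2, ZNF608 and AMD1 in 1 and FHL2 in 0.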

How the results depend on the processing

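No count and no named gene changed direction, but the first-wave medians, which have no test, changed sign without 2 h libraries. Under RLE scaling, halved counts, at least 10 counts in every library and thinning to the smallest library (278 higher and 210 lower), each count and median kept its direction and stayed within 1.5 times of the value given. The replicate numbers did not pair the libraries (correlation of deviations -0.0547 to 0.0595), and the replicate block gave 268 higher, 206 lower and 141 in the second wave Up, with 457 of the 530 calls shared. With only the compared time points in the fit, counts grew to 710 higher and 554 lower, 454 and 297 in the second wave Up and Down (323 and 232 of them on the same side at 8 h), 107 and 188 first-wave Up genes lower and higher at 4 h, and 68 and 150 first-wave Down genes higher and lower. An adjusted p under 0.01 left 152 higher, 116 lower, 73 and 48 in the second wave (66 and 42 at 8 h), 43 and 61 first-wave Up lower and higher, 18 and 25 first-wave Down higher and lower, 4 first-wave Up genes that fell from 4 h to 8 h, and a first-wave Down median of -0.0031. Under 0.1 these were 474, 347, 277 and 153 in the second wave (241 and 134 at 8 h), 54 and 109 first-wave Down, and 43 first-wave Up genes falling to 8 h. Without a filter 382 were lower, 174 were in the second wave Down (144 at 8 h), 56 and 110 were first-wave Down higher and lower, and 52 first-wave Up genes fell to 8 h, against 31 by DESeq2. With the 2 h libraries split between choice and measurement, 30 and 34 first-wave Up genes fell, 15 and 14 Down genes rose, and the medians were 0.052 and -0.0010 in the first split. The interaction gave 419 genes without a filter, 80 under 0.01, 261 by DESeq2 and 302 with 2 time points.

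Leaving out each library in turn gave 114 to 373 higher and 83 to 322 lower, 51 to 217 and 34 to 161 in the second wave Up and Down, of which 47 to 180 and 30 to 129 held at 8 h, 32 to 81 and 43 to 122 first-wave Up lower and higher, 16 to 38 and 14 to 100 first-wave Down higher and lower, 5 to 29 first-wave Up falling to 8 h, medians of -0.0077 to 0.041 and -0.031 to 0.020, and 60 to 226 for the interaction. Of 152 named genes, 8 lost the call under DESeq2, 11 under the block, 1 under RLE scaling and 17 after thinning, as did 282 of the 1216 values with 1 library left out. The depth and the 2 libraries a time point limit what can be called, so a gene not called is not shown to be flat.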
